A study of Mus musculus with 2 samples.

Results

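Epithelial class II antigen presentation was followed through 7 genes, H2-Aa, H2-Ab1, H2-Eb1, Cd74, H2-DMa, H2-DMb1 and Ciita, which were picked by symbol. All 7 were found among the 17219 genes of the authors' deposited table, and 13 of the 49739 rows in the deposited table of transcripts belonged to them. The study concerned mouse intestinal epithelium without FABP4, a protein that binds fatty acids. The labelled samples were intestinal organoids, cultures grown from crypts in Matrigel in IntestiCult medium and taken on day 6. F4KO organoids came from mice with floxed Fabp4 alleles and Cre under the villin promoter, active across the intestinal epithelium, and WT organoids from mice with the floxed alleles and no Cre, so that both carried the floxed alleles. The genotype label of F4KO says knockdown, whereas the title and the design text call it a knockout. The deposited tables hold a second comparison, of F4KO and WT libraries named Epi, which the labels used here do not describe. Its tissue preparation, animals and processing are therefore unknown here, and it is called Epi throughout. Ages are not given in the labels used here. Each comparison rests on 1 library per genotype, so no difference below has a replicate check and the deposited false discovery rate (FDR) compares 2 libraries, not genotypes.

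Class II molecules carry peptides of engulfed or internal proteins to the cell surface, where helper T cells read them. An alpha and a beta chain (H2-Aa with H2-Ab1 for the I-A molecule, H2-Eb1 as the beta chain of I-E) assemble with the invariant chain Cd74, which blocks the groove until the H2-DM pair, H2-DMa and H2-DMb1, swaps its last fragment for a peptide. Dendritic cells, macrophages and B cells express these genes constitutively, and enterocytes of the small intestine also express them, under interferon gamma and the transactivator Ciita. Ciita binds no DNA itself but docks on a complex of RFX, CREB and NF-Y factors held by X and Y boxes upstream of each class II gene.

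The promoter table used here, from RefSeq on build GRCm38.p6, matched 4 of the 7 genes. In 3 of them an X-box-like core, GNAACT, lay upstream of the Y-box core GATTGG on the gene's own strand. They are shown because the paired cores of these 3 promoters resemble the X and Y boxes described above. Each stretch runs 5′ to 3′ on that strand over 80 bases, from 110 to 31 bases before the annotated start, and the capitals mark the 2 cores.
H2-Aa, chr17:34287854-34287933, minus strand: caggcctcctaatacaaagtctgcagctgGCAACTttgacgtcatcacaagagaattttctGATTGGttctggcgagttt
H2-Eb1, chr17:34305757-34305836, plus strand: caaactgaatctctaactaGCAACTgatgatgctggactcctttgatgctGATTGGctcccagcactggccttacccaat
H2-DMb1, chr17:34153081-34153160, plus strand: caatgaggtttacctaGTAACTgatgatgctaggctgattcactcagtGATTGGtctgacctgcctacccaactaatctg
The first base of GATTGG followed that of GNAACT by 32 bases in H2-Aa, 31 in H2-Eb1 and 32 in H2-DMb1. Over all 32851 promoters of the table, windows of 250 bases before to 50 bases after a start and searched on both strands, 42.8% held GNAACT and 16.1% held GATTGG. The pair with starts 25 to 40 bases apart on one strand was in 83 of them, 0.253%. That spacing was set after these 3 promoters had been seen. Neither of the 2 promoter entries of H2-DMa held the pair. A match of letters is a description and not a measured binding site.

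The direction, F4KO over WT, follows from how the file headers order the 2 names. No level per library was in the tables, but the deposited p-values gave back whole read numbers for all 11 of the 14 member values with a p-value above 0. For the other 3, where the p-value is listed at 0, lower limits of the reads were derived. These limits set the read ratio at the deposited fold change. The total of reads in F4KO was 0.813 times that in WT for Epi and 0.992 times for the organoids. An estimate from the rounding of the deposited fold changes put the depth of the WT organoid library at 0.895 times that of the WT Epi library. Ratios of reads are scaled by the totals and their exact 95% Clopper-Pearson intervals cover counting error only. The targeted gene checks neither the labels nor the direction, since Fabp4 had 4 reads in F4KO Epi and 1 in WT Epi, and 0 in F4KO organoids and 1 in WT organoids. Y-linked genes set the organoid libraries apart. Eif2s3y had 879 reads in F4KO organoids and 1 in WT organoids, and Ddx3y had 230 and 1, so that the sex of the source animals and the genotype cannot be told apart there. In Epi, Ddx3y had 448 reads in F4KO and 374 in WT.

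All 7 class II genes were lower in the F4KO Epi library than in the WT Epi library at a deposited FDR of 0.001 or less. Among all 16336 genes tested in Epi, 7.92% were called lower and 30.6% higher at that limit. The members' deposited log2 fold changes ran from -1.35 for H2-Aa to -0.48 for H2-DMa with a median of -1.01, whereas the median over all genes was 0.38 with quartiles of -0.01 and 0.99. Relative to that general shift the members' median was -1.39, and their range was -1.73 to -0.86. With a fold of at least 2 added to the FDR limit, 4 of the 7 remained, H2-Aa, H2-Eb1, H2-DMb1 and Ciita, against 0.979% of all genes called lower. A looser FDR limit of 0.05 also called 7 of 7, and 10.4% of all genes were lower at it. Between 3.97% of all genes, for H2-Aa, and 10.8%, for H2-DMa, had a lower fold change than a member did. In such bulk RNA, fewer cells that express a gene and less RNA per cell cannot be told apart.

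**Figure D1:**
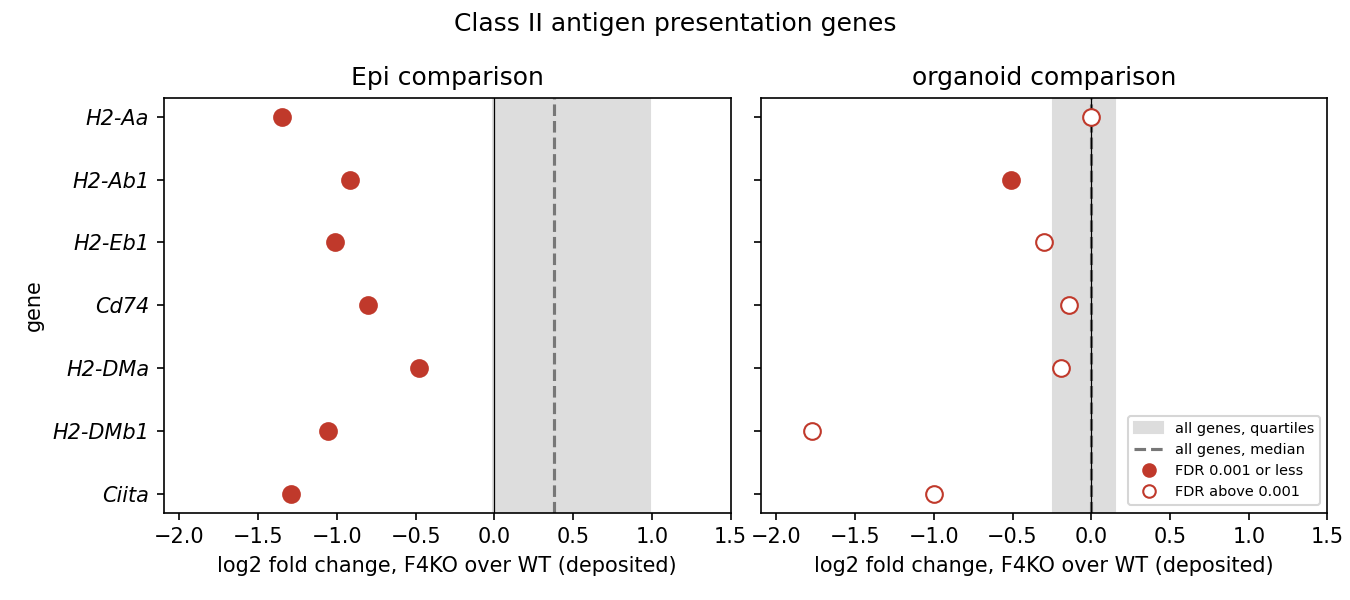
Deposited log2 fold change (F4KO over WT) of the 7 class II genes in Epi (left) and in organoids (right), 1 library per genotype. Filled points are at an FDR of 0.001 or less, the dashed line is the median of all genes (0.38 in Epi, 0.00 in organoids) and the grey band spans their quartiles. All 7 points lie left of the band in Epi. In organoids H2-Ab1, H2-Eb1, H2-DMb1 and Ciita do, and H2-Ab1 alone is filled.

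All 3 peptide-binding chains fell in Epi, by 1.90-fold to 2.55-fold. H2-Aa, the I-A alpha chain (gene ID 14960, chr17:34282744-34287823, minus strand, GRCm38.p6), had at least 1925 reads in F4KO Epi and at least 6045 in WT Epi, and its log2 fold change was -1.35 with FDR listed at 0 per the authors' deposited table. Its partner H2-Ab1, the I-A beta chain (gene ID 14961, chr17:34263227-34269418, plus strand), had at least 4769 reads in F4KO Epi and at least 11126 in WT Epi. The authors' deposited table gave it a log2 fold change of -0.92 (FDR 0). Both chains of I-A were thus lower in F4KO, H2-Aa by 2.55-fold and H2-Ab1 by 1.90-fold. H2-Eb1, the I-E beta chain (gene ID 14969, chr17:34305867-34316674, plus strand), had 1930 reads in F4KO Epi and 4786 in WT Epi, a scaled ratio of 0.496 with an interval from 0.470 to 0.523. The authors' deposited table listed H2-Eb1 at a log2 fold change of -1.01 (FDR 8.92e-160). An antisense gene, Gm20513, overlaps H2-Eb1, and the sources used here do not say whether the authors counted by strand. H2-Ea, the alpha chain that would complete I-E and that many inbred mouse strains lack, had 0 reads in F4KO Epi and 1 in WT Epi.

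Cd74, the invariant chain (gene ID 16149, chromosome 18) and the partner of every class II pair, fell as well. With its read ratio set at the deposited fold change, it had at least 6652 reads in F4KO Epi and at least 14231 in WT Epi. Its deposited log2 fold change was -0.80 with FDR listed at 0 per the authors' deposited table, 1.74-fold lower in F4KO. The table of transcripts held 2 Cd74 forms, and both fell. NM_010545.3 was listed by the authors' deposited table at -0.78 with an FDR of 0, and NM_001042605.1 at -0.94 with an FDR of 1.89e-114. The reads of NM_001042605.1 were 1628 in F4KO Epi and 3850 in WT Epi, a scaled ratio of 0.520 with an interval from 0.491 to 0.551.

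The H2-DM peptide exchange pair did not move by the same amount. H2-DMb1, the beta chain (gene ID 14999, chr17:34153191-34160229, plus strand), had 805 reads in F4KO Epi and 2061 in WT Epi, a scaled ratio of 0.481 with an interval from 0.442 to 0.522. The authors' deposited table gave H2-DMb1 a log2 fold change of -1.06 (FDR 2.54e-74). H2-DMa, the alpha chain (gene ID 14998, chr17:34119693-34139101, plus strand), had 881 reads in F4KO Epi and 1434 in WT Epi. Its scaled ratio was 0.756 with an interval from 0.694 to 0.823, which lies wholly above that of H2-DMb1. The authors' deposited table listed H2-DMa at -0.48 with an FDR of 2.29e-10. H2-DMb1 has a close copy, H2-DMb2, so that reads could be split between them. H2-DMb2 had 18 reads in F4KO Epi and 13 in WT Epi, and the authors' deposited table gave it a log2 fold change of 0.81 (FDR 0.219). The span of H2-DMa overlaps Brd2 on the opposite strand, so that some reads could belong to either gene if strand was not used.

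The forms of H2-DMa moved in opposite directions in Epi. The main form, NM_010386.4, had 796 reads in F4KO Epi and 1391 in WT Epi, at a log2 fold change of -0.51 and FDR 8.25e-15 per the authors' deposited table. XM_017317260.2, a predicted form, had 78 reads in F4KO Epi and 35 in WT Epi and was higher, at 1.46 with FDR 7.76e-07 per the authors' deposited table. Its share of the gene's transcript reads was 8.86% (exact 95% interval 7.07% to 10.9%) in F4KO Epi and 2.44% (1.71% to 3.38%) in WT Epi. The third form, XM_006523684.4, had 6 reads in each library.

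Ciita, the transactivator of the other 6 genes (gene ID 12265, chr16:10480014-10531064, plus strand), had the fewest reads. It had 276 reads in F4KO Epi and 689 in WT Epi, a scaled ratio of 0.493 with an interval from 0.427 to 0.567. The authors' deposited table listed it at a log2 fold change of -1.29 (FDR 5.23e-24), further from 0 than the log2 read ratio of -1.02. Dexi lies on the opposite strand within its span.

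The forms of Ciita did not fall alike. NM_001243761.2 had 28 reads in F4KO Epi and 320 in WT Epi, a scaled ratio of 0.108 with an interval from 0.0704 to 0.159. The authors' deposited table of transcripts listed it at -3.17 with an FDR of 2.18e-50. XM_011245810.3 was also lower, with 63 reads in F4KO Epi and 196 in WT Epi, at -1.34 and FDR 4.52e-11 per the authors' deposited table. XM_030248943.1 was not called, with 179 reads in F4KO Epi and 172 in WT Epi, a log2 fold change of 0.36 and FDR 0.0352 per the authors' deposited table. The remaining form, XM_006521724.2, had 4 reads in F4KO Epi and 0 in WT Epi. As shares of the gene's transcript reads, which do not depend on the scaling of the libraries, NM_001243761.2 made up 10.2% (exact 95% interval 6.90% to 14.4%) in F4KO Epi and 46.5% (42.7% to 50.3%) in WT Epi. XM_030248943.1 made up 65.3% (59.4% to 71.0%) in F4KO Epi and 25% (21.8% to 28.4%) in WT Epi. Among all 42245 transcripts tested in Epi, 15.5% were called lower and 28.3% higher, and the division of reads among forms that share exons is the estimate of the authors' quantifier.

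Ciita is known to have separate promoters for separate cell types, of which the one nearest the coding exons, pIV, answers to interferon gamma and serves cells outside the haematopoietic lineage, while pI and pIII serve dendritic cells and lymphocytes. In the GENCODE M21 annotation of GRCm38, the transcripts matched to RefSeq began at 10480059 and 10480164 (NM_001243760, NM_001302618 and NM_001302619), at 10488279 (NM_007575) and at 10489781 (NM_001243761) of chromosome 16. The form that fell most in Epi, NM_001243761, had the start farthest downstream of these. The other RefSeq forms named here had no deposited values. Whether NM_001243761 fell more than forms with those upstream starts therefore could not be measured. The starts of the 3 predicted forms were not in the annotation used here.

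**Figure D2:**
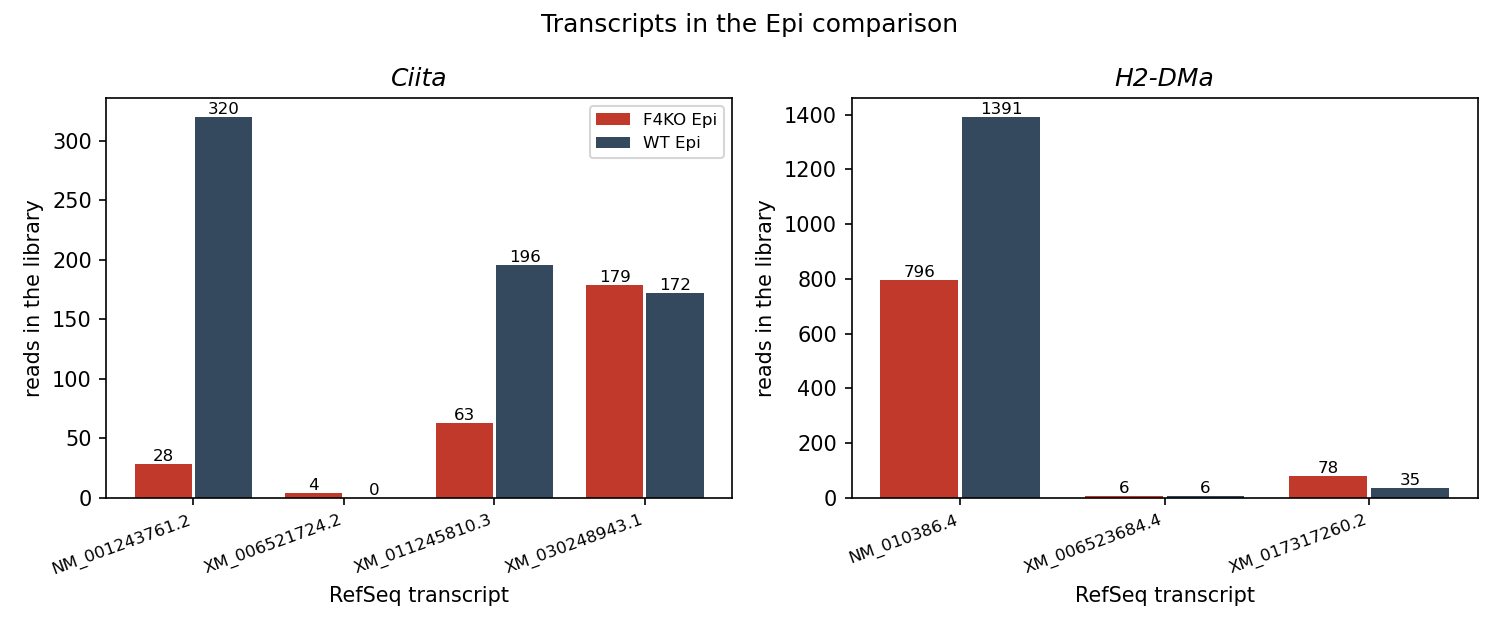
Reads in each RefSeq transcript of Ciita (left) and H2-DMa (right) in Epi, F4KO bars left of WT bars, 1 library each, linear axis from 0. Ciita NM_001243761.2 had 28 reads in F4KO and 320 in WT while XM_030248943.1 had 179 and 172; H2-DMa NM_010386.4 had 796 and 1391 while XM_017317260.2 had 78 and 35.

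In organoids the class II genes had far fewer reads, and 1 of the 7, H2-Ab1, fell at an FDR of 0.001 or less, where 4.70% of 15845 genes were called lower and 3.09% higher. The members' median log2 fold change was -0.30, with a range from -1.77 to 0.00, beside a median of 0.00 and quartiles of -0.24 and 0.15 over all genes. H2-Ab1 had 295 reads in F4KO organoids and 423 in WT organoids, a scaled ratio of 0.703 with an interval from 0.604 to 0.818. The authors' deposited table gave it a log2 fold change of -0.51 (FDR 5.34e-05). Its I-A partner H2-Aa had 5 reads in each organoid library (0.00, FDR 1.02, authors' deposited table, whose FDR has no ceiling at 1). H2-Eb1 had 13 reads in F4KO organoids and 16 in WT organoids, a ratio of 0.819 whose interval ran from 0.362 to 1.82 (-0.30, FDR 0.782, authors' deposited table). Cd74 had 34 reads in F4KO organoids and 37 in WT organoids, a ratio of 0.926 with an interval from 0.564 to 1.52 (-0.14, FDR 0.87, authors' deposited table).

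Neither H2-DM gene was called in organoids at an FDR of 0.001. H2-DMb1 had 6 reads in F4KO organoids and 24 in WT organoids, a ratio of 0.252 with an interval from 0.0843 to 0.633. Its deposited log2 fold change of -1.77 carried FDR 0.00834 per the authors' deposited table and so did not pass 0.001. The log2 read ratio of H2-DMb1, -1.99, was larger in size than that deposited value, since so few reads are recovered as whole numbers. H2-DMa had 100 reads in F4KO organoids and 113 in WT organoids, a ratio of 0.892 with an interval from 0.675 to 1.18. The small gap between the intervals of the H2-DM genes is therefore not firm, and a difference between them was not tested. The authors' deposited table listed H2-DMa at -0.19 with an FDR of 0.677. Ciita had 1 read in F4KO organoids and 2 in WT organoids, a ratio of 0.504 with an interval from 0.00854 to 9.68 (FDR 0.795, authors' deposited table), so no difference was detectable at this depth. Its reads were listed under NM_001243761.2. With an FDR limit of 0.05 the calls were H2-Ab1 and H2-DMb1, 2 of 7, where 10.2% of all genes were lower, and with a fold of at least 2 they were 0 of 7, where 0.24% were lower.

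**Figure D3:**
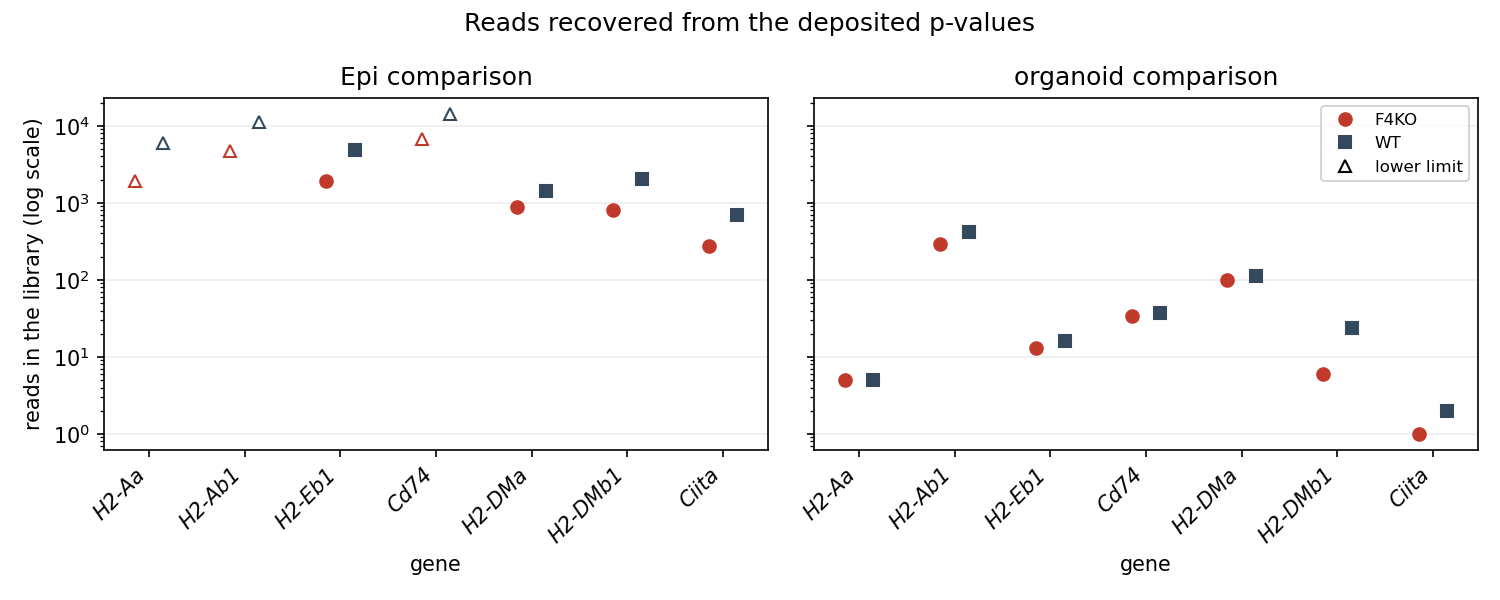
Reads of the 7 class II genes in F4KO (circles, left of each pair) and WT (squares), 1 library each, in Epi (left) and organoids (right) on a log axis. Open triangles are lower limits where the deposited p-value is listed at 0. F4KO Epi held between 276 and at least 6652 reads per gene, WT Epi between 689 and at least 14231, F4KO organoids between 1 and 295, and WT organoids between 2 and 423.

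Per kilobase of transcript the order of the levels differed between the preparations. Lengths were those of 1 annotated transcript per gene. F4KO Epi held at least 5434 reads per kilobase for Cd74, at least 3934 for H2-Ab1 and at least 1706 for H2-Aa, then 1156 for H2-Eb1, 573 for H2-DMb1, 531 for H2-DMa and 69.8 for Ciita. WT Epi held at least 11626 reads per kilobase for Cd74, at least 9179 for H2-Ab1 and at least 5359 for H2-Aa, then 2868 for H2-Eb1, 1468 for H2-DMb1, 865 for H2-DMa and 174 for Ciita. The first 3 values of each library are lower limits and do not order those genes among themselves. H2-DMb1 stood well above H2-DMa in WT Epi and close to it in F4KO Epi. F4KO organoids had 243 reads per kilobase for H2-Ab1, 60.3 for H2-DMa, 27.8 for Cd74, 7.79 for H2-Eb1, 4.43 for H2-Aa, 4.27 for H2-DMb1 and 0.253 for Ciita. WT organoids had 349 reads per kilobase for H2-Ab1, 68.2 for H2-DMa, 30.2 for Cd74, 17.1 for H2-DMb1, 9.59 for H2-Eb1, 4.43 for H2-Aa and 0.506 for Ciita. The Epi and organoid tables were normalized separately and the difference between the 2 comparisons was not tested.

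Of 25 other class II pathway genes in Epi, 2 fell, 5 rose and 18 did not pass the FDR limit, with a median log2 fold change of -0.00 beside 0.38 for all genes. Of all genes 7.92% were called lower and 30.6% higher, so the list's share of lower calls was near the background and its share of higher calls was under it. The 2 that fell were Cd274, an inhibitory ligand for T cells, and Ctsl, a lysosomal protease that trims the invariant chain. Cd274 had 304 reads in F4KO Epi and 596 in WT Epi (-0.69, FDR 8.72e-11, in the authors' deposited table), and Ctsl had 224 and 409 (-0.63, FDR 5.18e-06). Icosl, a costimulatory ligand, rose to 217 reads in F4KO Epi, against 109 in WT Epi, at 1.29 with FDR 2.25e-14 per the authors' deposited table. Rfxap, a subunit of the RFX complex, had 154 reads in F4KO Epi and 112 in WT Epi and rose by 0.76, with FDR 6.17e-05 per the authors' deposited table. The proteases Ctsb and Ctsd and the thiol reductase Ifi30 were the other 3 higher genes, at 0.29, 0.18 and 0.27, each under the median of all genes.

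Of the 7 listed partners of Ciita at the promoter (Rfx5, Rfxap, Rfxank, Nfya, Nfyb, Nfyc and Creb1), 0 were called lower in Epi. Among all genes 7.92% were, so a count of 0 among 7 is near the background. Their log2 fold changes ran from -0.26 for Nfya to 0.76 for Rfxap. Rfx5, the DNA-binding subunit of RFX, had 167 reads in F4KO Epi and 144 in WT Epi, at 0.56 with FDR 0.00404 per the authors' deposited table, which missed the limit. Ctss, the main invariant chain protease of antigen-presenting cells, was listed at -0.01 with FDR 0.855 per the authors' deposited table. The class II genes H2-Oa, H2-Ob and H2-Eb2 were close to undetected. H2-Oa had 3 reads in F4KO Epi and 2 in WT Epi, H2-Ob had 2 and 7, and H2-Eb2 had 3 and 5. In organoids 21 of the 25 genes had a fold change, and 1 of them, Ctsb, was called, higher at 0.17 with FDR 1.93e-21 per the authors' deposited table. Of all genes in organoids, 4.7% were called lower and 3.09% higher. In the same libraries the authors' deposited table listed Rfx5 at -0.16 (FDR 0.705) and Ctss at -0.15 (FDR 0.367). H2-DMb2 had 2 reads in F4KO organoids and 0 in WT organoids, H2-Oa had 1 and 0, and H2-Ob and H2-Eb2 had no fold change.

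The interferon gamma list moved both ways in Epi. Of its 25 genes, 9 fell, 5 rose and 11 did not pass, where 7.92% of all genes were called lower and 30.6% higher. The list's median was -0.11, beside 0.38 for all genes. Lower in F4KO Epi were the guanylate-binding proteins Gbp2, with 154 reads in F4KO and 612 in WT (-1.69, FDR 2.41e-45, in the authors' deposited table), and Gbp6, with 683 and 1545 (-0.87, FDR 2.30e-41). So were the ubiquitin-like modifier Ubd, with 723 reads in F4KO Epi and 2042 in WT Epi (-1.20, FDR 7.18e-90, in the authors' deposited table), and the GTPase Igtp (-1.07, FDR 2.69e-233). Socs1, an inhibitor of the receptor's JAK kinases, was higher, with 561 reads in F4KO Epi and 277 in WT Epi (1.32, FDR 1.05e-36, in the authors' deposited table). Ifng itself had 3 reads in F4KO Epi and 4 in WT Epi. Nlrc5, the relative of Ciita that acts on class I genes, was listed at 0.20 with FDR 0.0693 per the authors' deposited table. In organoids 22 of the genes had a fold change, with a median of -0.31, and Irgm1 alone was called, with 219 reads in F4KO and 322 in WT (-0.49, FDR 2.17e-04, in the authors' deposited table). Among all genes in organoids, 4.7% were called lower and 3.09% higher. Nlrc5 had 2 reads in F4KO organoids and 4 in WT organoids, and Ifng had no fold change there.

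**Figure D4:**
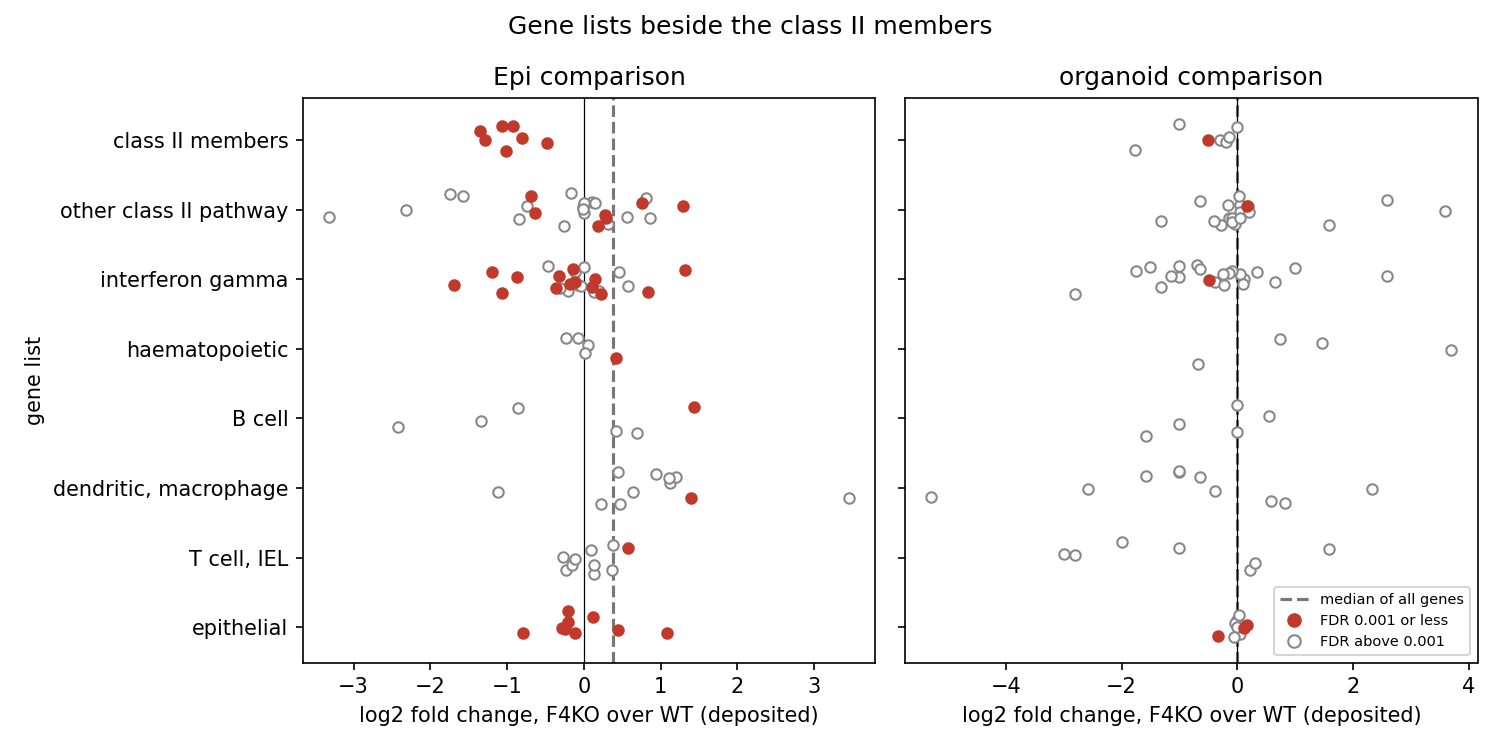
Deposited log2 fold change (F4KO over WT) of each gene in 8 lists, Epi left and organoids right, 1 library per genotype, with rows spread at random in height. Filled points are at an FDR of 0.001 or less and the dashed line is the median of all genes. In Epi the 7 class II members are all filled and below 0, while the dendritic and macrophage list has 1 filled point, Itgam, at 1.40.

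Markers of immune cells were detected in Epi, and 0 of them were called lower, where 7.92% of all genes were. The list with the most reads, of T cells and intraepithelial lymphocytes, does not mark the cells named above as expressing class II constitutively. Many had few reads, which limits what could be called. The 5 haematopoietic markers summed to 1308 reads in F4KO Epi and 1537 in WT Epi, 85.1% of WT at a ratio of library totals of 0.813, with 0 of 5 called lower and Rac2 higher at 0.42. The 11 measured dendritic cell and macrophage markers summed to 634 reads in F4KO Epi and 379 in WT Epi. Itgam was called higher, with 334 reads in F4KO Epi and 156 in WT Epi, and the others were not called. Adgre1 had 5 reads in F4KO Epi and 0 in WT Epi, C1qa had 36 and 23, and Flt3 had 13 and 10. Xcr1, a dendritic cell marker with 4 reads in F4KO Epi and 10 in WT Epi, was the 1 of 11 with a fold change below 0. The 6 B cell markers summed to 221 reads in F4KO Epi and 150 in WT Epi. Of that sum Jchain, a plasma cell gene, gave 182 and 83 and was called higher. Fold changes were below 0 for 3 of the 6, and other defining B cell genes had few reads. Ms4a1 had 5 reads in F4KO Epi and 11 in WT Epi, Cd79a had 9 and 28, Cd79b had 20 and 16, and Pax5 had 4 and 5. The part of B cells, dendritic cells and macrophages in the class II result was not tested. The 10 measured markers of T cells and intraepithelial lymphocytes summed to 6427 reads in F4KO Epi and 7177 in WT Epi, with 0 called lower and 1 higher, Ccl5, at 0.57.

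Epithelial markers moved in both directions in Epi. Of 9, 6 fell and 3 rose, where 7.92% of all genes were called lower and 30.6% higher. The list's median was -0.20, beside 0.38 for all genes. Krt20, a keratin of mature surface cells, was listed at -0.79 and Krt19 at 1.08, each with FDR 0 per the authors' deposited table. Vil1 and Cdx2, both markers of intestinal epithelium, stood at -0.28 and -0.24 and were called lower. The part of a change in epithelial makeup in the class II result was not tested. In organoids most immune markers were near 0. The haematopoietic, B cell and T cell lists summed to 15, 5 and 15 reads in F4KO organoids and to 17, 8 and 16 in WT organoids. The dendritic cell and macrophage list summed to 158 reads in F4KO organoids and 236 in WT organoids, of which Cd68 held 104 and 165 and Itgam 42 and 56. Fold changes were below 0 for 7 of the 10 with a value. Flt3 and Lyz2 were at 0 in F4KO organoids and had 1 and 6 reads in WT organoids, whereas C1qa had 7 reads in F4KO organoids and 4 in WT organoids, Csf1r had 2 and 1, and Xcr1 had 3 and 0. None of these 4 lists had a called gene in organoids, where 4.7% of all genes were called lower and 3.09% higher. Their part in the organoid H2-Ab1 result was not tested.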

How the data were processed

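The authors compared RNA-seq libraries of mouse organoids and, separately, the Epi libraries that the labels do not describe. They deposited a log2 fold change, a p-value and an FDR score per gene and per transcript for each of 2 comparisons. Per the file headers the p-value comes from a Poisson-distribution test. The FDR has no ceiling at 1, so H2-Aa in organoids is listed at 1.02. The submitters' processing notes name the builds GRCm38 and mm10. The sources used here give no aligner, quantifier or annotation. Genes were called at a deposited FDR of 0.001, and no test of genotype was made with 1 library per genotype.

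Read numbers were recovered by matching each deposited p-value (6 digits) to the two-sided Audic-Claverie test of whole read pairs, together with the fold change. For genes with 1 transcript both tables had to match. When each of 94 of their gene p-values was moved up and down by 0.03%, 0 of 188 trials still gave a pair. The transcript p-value was left unmoved there, so that count could hardly differ and measures no rate of false matches. For genes with several transcripts, 94 p-values moved in the same way still gave a pair in 27 of 188 trials (14.4%). The reads of H2-DMa, Cd74 and Ciita are uncertain to that extent. Their transcript sums differ from the gene values by at most 2 reads. This closeness is no separate check for H2-DMa in either comparison, nor for Cd74 and Ciita in organoids. Between 3 and 5 read pairs matched each of those gene values, and the one kept was tied to the transcript sum, except for H2-DMa in organoids. There XM_006523684.4 and XM_017317260.2 fitted 5 and 12 pairs. The gene's pair was therefore kept by its closeness to the deposited fold change. The H2-DMa transcript sum in organoids used the first pair listed for each of these forms. Ciita in Epi had 1 matching pair. The recovery was also run on simulated read pairs, with the setting for genes with 1 transcript only, and that outcome is not reported here. Where the p-value is 0, limits follow from the smallest deposited p-value above 0, with the read ratio set at the deposited fold change. In a gene with several transcripts, such as Cd74, the read ratio can differ from that fold change. The limits of Cd74 are therefore approximate. Relative depth used genes with 1 transcript, of which 55.2% in Epi and 62.3% in organoids shared one value of reads per rounding step and base.

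Members and lists were chosen with earlier results of these data known. The named list genes were up to 5 called genes of largest change per list and comparison, plus Ifng, Nlrc5, Rfx5, Ctss, H2-Oa, H2-Ob, H2-Eb2 and H2-DMb2. H2-Ea, Ctsd, Ifi30 and the marker genes that were not called were named after their values were seen. Alternatives were a looser FDR, a fold limit, the table of transcripts, a minimum of 20 reads, centring, and read ratios. Python 3.11.15, scipy 1.17.1 and pandas 2.3.3 were used.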

Additional observations from a re-analysis of the deposited data

Results flagged for a closer look

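Of the epithelial markers, 2 passed an FDR of 0.001 in both comparisons with opposite signs. Krt18, a keratin, had a deposited log2 fold change of 0.44 in Epi and -0.33 in organoids. Vil1, the actin-bundling protein of microvilli, had -0.28 in Epi and 0.12 in organoids. Each difference between the comparisons was seen in 1 library per genotype and was not tested.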

How the results depend on the processing

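In Epi, adding a fold of at least 2 left 4 of the 7 class II calls, and centring on all genes moved the members' median log2 fold change to -1.39. In organoids the calls numbered 2 at an FDR of 0.05, with H2-DMb1 added, and 0 with a fold of at least 2 required. Of 11 recovered read ratios, 10 belong to a deposited value other than 0 and kept its direction, with a largest move of 0.27, for Ciita in Epi. Read pairs were accepted only if they fitted the deposited fold change, so this likeness was set by the recovery and is no separate check. Centring could not reverse a member, since the values were already at or below 0. A minimum of 20 reads kept 7 genes in Epi and 5 in organoids. No paired analysis was possible because each comparison has 1 library per genotype. Depth limits H2-Aa, H2-Eb1 and Ciita in organoids, with at most 16 reads per library. Counting error also limits Cd74 and H2-DMa there. The organoid interval of Cd74, 0.564 to 1.52, includes both 1 and its deposited Epi fold of 0.58. That of H2-DMa, 0.675 to 1.18, includes both 1 and its Epi read ratio of 0.756.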
